A study of Arabidopsis thaliana with 4 samples.

Results

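A set of 52 genes lies near AtbZIP17 binding peaks in heat-stressed *Arabidopsis* seedlings and is also listed by the study as induced by heat in flowers of WT plants but not of *bzip17* mutant plants. They were chosen by joining the flower list, which holds 1380 loci, with the lines of the study's target table that were used here, which name 842 genes. Of the 57 loci on both, *SDF2*, *P58IPK*, *PIP2A*, *AIRP2* and *P5CS1* were set aside, and the remaining 52 make up 6.18% of the target genes. The peaks came from ChIP-seq of 13-day-old seedlings that carried 35Spro::MYC-bZIP17 in the Columbia-0 background and that had grown at 22 °C before 2 h of heat at 42 °C. There were 3 anti-MYC ChIP samples, called replicates 1, 2 and 3, and 1 input library of the same genotype and treatment that served only for peak calling. Binding was thus measured in whole seedlings, while the flower list comes from flower buds. According to the study, the flowering plants were also heated at a lower temperature and for longer than the seedlings. The 35S promoter is active in most tissues, so the tagged protein was made broadly and not under the control of its own promoter. No peak list of unheated seedlings or of a mock precipitation was analysed here, and binding before heat is therefore not known from these data.

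AtbZIP17 is a transcription factor held in the membrane of the endoplasmic reticulum (ER). Under stress it moves to the Golgi and is cut there, and the freed part enters the nucleus and binds DNA. Its paralog AtbZIP28 is activated in the same way and is a main regulator of the unfolded protein response, which raises folding and degradation capacity in the ER when misfolded proteins build up. AtbZIP17 is also known from salt stress and abscisic acid signalling.

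The strength of a peak was read from its pileup, which counts the overlapping fragments at its summit, and from its fold enrichment, which sets the pileup against a local background that the peak caller MACS took from the input. For each gene the listed peak with the highest pileup was taken in every replicate. The 3 lists held 4330 to 4523 peaks with a median pileup of 34 to 35 fragments. Their read totals are unknown, so the spread of the replicates is the only measure of error here. The rule required a listed peak in every replicate, and the presence of a peak is therefore no finding. Replicates are separate ChIP samples by their labels, which do not say whether they came from separate cultures.

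Over the 52 genes, the mean pileup ran from 33.7 fragments at *FSD1* to 388 fragments at *AT5G47420*, with a median of 57.5 fragments and quartiles of 42.6 and 78.5 fragments. Within single replicates the median was 54.5, 57.5 and 57 fragments (SD 1.61, n = 3). The median over all 842 target genes was 58.2 fragments, and 55, 60 and 57 fragments within replicates 1, 2 and 3. The 52 genes were thus slightly lower in replicates 1 and 2 and equal in replicate 3, and the difference was not tested. A mean pileup of at least 100 fragments was found at 10 of the 52 genes (19.2%), against a background of 23.3% of all target genes. The loci set aside count only among all target genes. Of these loci, *PIP2A*, *SDF2*, *P58IPK* and *AIRP2* had means from 224 to 281 fragments and *P5CS1* had 54.0. The share at the 52 genes is therefore lower than at all loci on both lists. A fold enrichment of at least 3 in all replicates was found at 23 genes (44.2%), against 47.1% of all target genes, and a *q* value below 1e-05 in all replicates at 34 genes (65.4%), against 65.6%. All these shares lie near their background and are no result about the 52 genes. The flower list gives a locus, a gene model and a description, and no expression values, so pileup could be related to the annotation of the genes and not to the size of their induction in flowers.

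**Figure D1:**
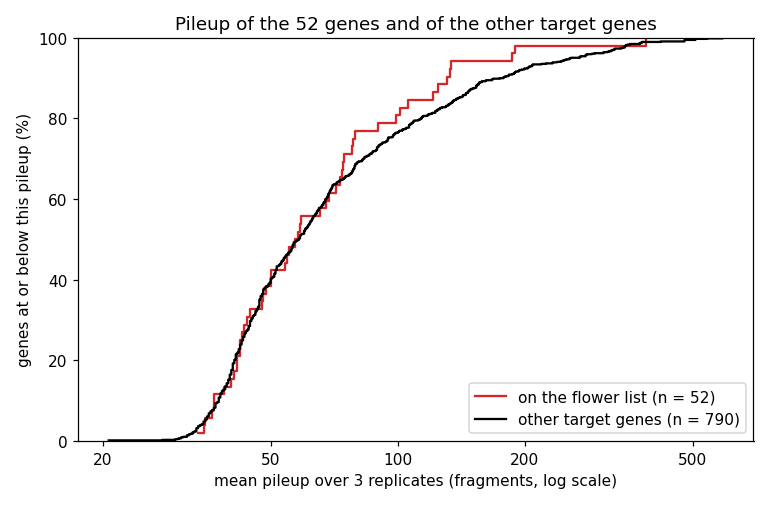
Share of genes (vertical axis, %) at or below a given mean pileup over 3 replicates (horizontal axis, fragments, log scale) for the 52 genes on the flower list (red) and the 790 other target genes (black). The black curve includes the 5 loci set aside, which are also on the flower list. The 2 curves run together up to about the medians of 57.5 and 58.3 fragments, and the upper quartile is 78.5 fragments in red and 94.9 fragments in black.

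The spread between replicates was compared with that of all target genes. The highest replicate was within 1.5 times the lowest at 47 of the 52 genes (90.4%), against 94.4% of all target genes, and the median coefficient of variation was 9.10%, against 10.2% over all target genes. Across the 52 genes, which are not independent replicates and in part share peaks, the pileup of replicate 2 had a Spearman's rho of 0.875 with that of replicate 1 and of 0.901 with that of replicate 3, and for replicates 1 and 3 it was 0.791. When the genes were put in order of mean pileup, 6 of the 51 neighbouring pairs differed by more than the larger SD of the pair, and in 4 pairs the ranges of the replicates were apart. Most neighbours in the order thus do not differ beyond their spread. *AT5G47420* stood above *PRR7*, *AT1G20880* above *AT1G14010*, *AT5G64400* above *ALP*, and *BBX27* above *MIPS2* in every replicate without overlap.

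**Figure D2:**
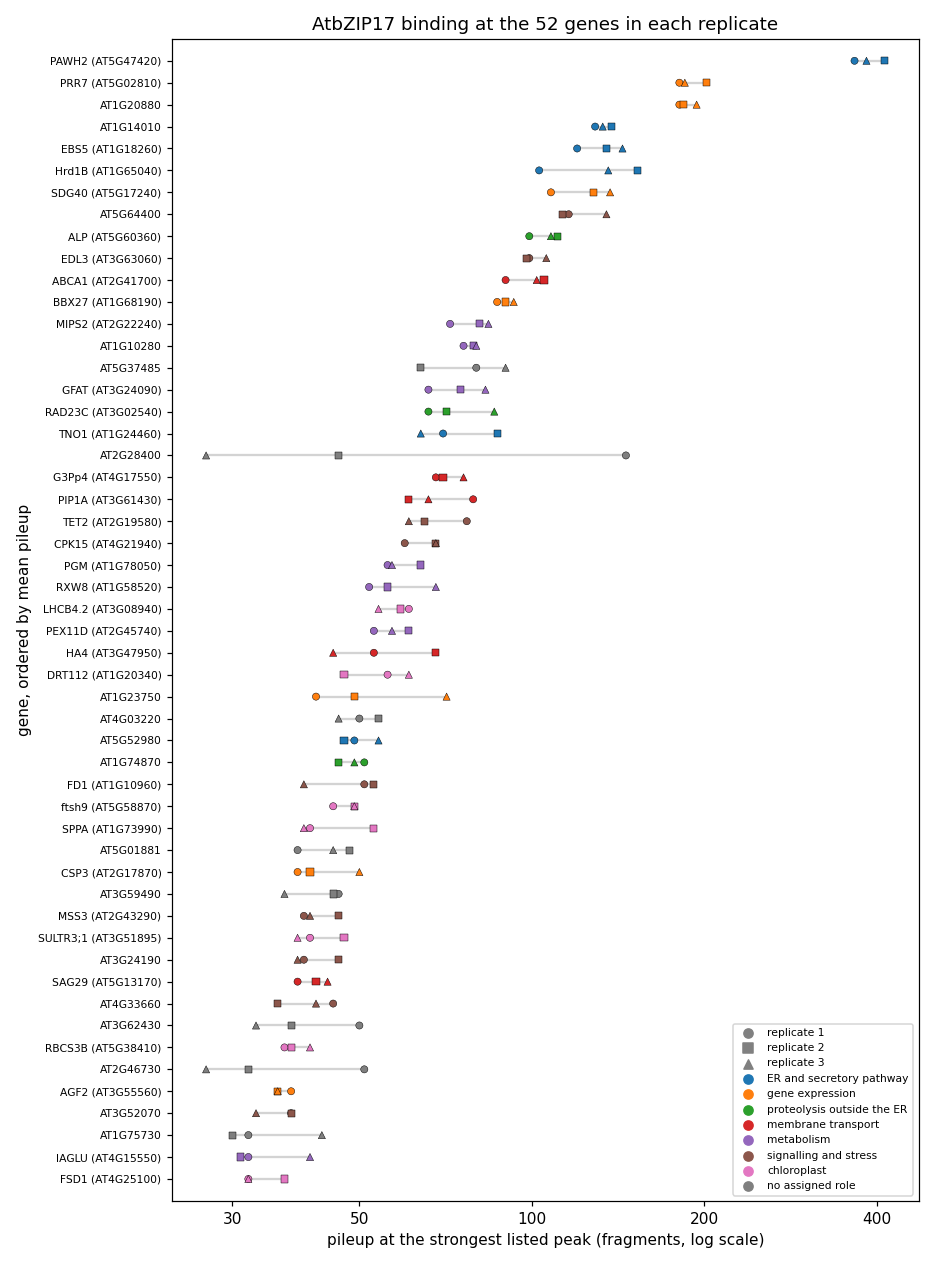
Pileup at the strongest listed peak (horizontal axis, fragments, log scale) of each of the 52 genes (vertical axis, ordered by mean pileup), with 1 symbol per replicate, a line over their range and colours for gene groups. *PAWH2* (*AT5G47420*) lies at 366 to 413 fragments, apart from all others, and *AT2G28400* has the widest range, from 27 to 146 fragments.

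The 6 genes of the ER and the secretory pathway had the highest median pileup of any group formed here, 132 fragments, with a range of means from 50 to 388 fragments. All 6 had overlapping peaks in the 3 replicates and a *q* value below 1e-05 in each, and 5 of 6 reached a fold enrichment of 3 in each. Over all target genes these shares were 90.4%, 65.6% and 47.1%, so the overlap is near its background. The counts for the *q* value and the fold enrichment rest on only 6 genes and were not tested. Their median was 2.12, 2.55 and 2.59 times that of the other 46 genes within replicates 1, 2 and 3, and 2.40 times by the means over replicates (SD of the 3 ratios 0.258). The ratio describes these 6 genes and was not tested, since genes are not replicates of a pathway. The groups were formed with earlier results of these data known, so the order of the groups is a description only.

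The strongest peak of all 52 genes was that of *PAWH2* (*AT5G47420*), described on the flower list as part of the ER ubiquitin ligase complex with HRD1. Its pileup was 366, 413 and 384 fragments, a mean of 388 ± 23.7 (SD, n = 3), at 20.7 ± 1.79 times the local background. This was 2.02, 2.04 and 2.08 times the pileup of *PRR7*, the next gene by mean pileup, in replicates 1, 2 and 3, and it ranked 16 by pileup among the peaks of each list. The peak covered chr5:19229000-19235947 in replicate 1 (6948 bp), chr5:19228974-19234092 in replicate 2 and chr5:19228670-19235869 in replicate 3, with 3 summits within 37 bp. All coordinates are those of the deposited lists, for which the labels name the build TAIR10. Among the 842 target genes *PAWH2* ranked 9 by mean pileup.

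A pair of other genes of the same degradation pathway had far lower pileup, and their values overlapped. *EBS5* (*AT1G18260*), also named *HRD3A*, encodes the homolog of yeast Hrd3, the partner of the Hrd1 ligase in ER-associated degradation (ERAD). It had 120, 135 and 144 fragments, a mean of 133 ± 12.1 (SD, n = 3), at chr1:6280868-6283474 in replicate 1, with summits within 15 bp. *Hrd1B* (*AT1G65040*), a homolog of the ligase itself, had 103, 153 and 136 fragments, a mean of 131 ± 25.4 (SD, n = 3), at chr1:24161962-24164676 in replicate 1, with summits within 25 bp. *EBS5* was higher in replicates 1 and 3 and *Hrd1B* in replicate 2. Their fold enrichments of 6.53 ± 0.915 and 6.55 ± 1.53 (SD, n = 3) overlapped as well.

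The other genes of this group act in transport between compartments. *AT1G14010*, a p24/GOLD family protein of the kind that helps to load vesicles between ER and Golgi, had 129, 138 and 133 fragments, a mean of 133 ± 4.51 (SD, n = 3). Its summits at 4801910, 4801905 and 4801909 on chromosome 1 lay within 5 bp, the closest of all 52 genes. *TNO1* (*AT1G24460*), a protein of the *trans*-Golgi network that takes part in vacuolar trafficking and salt tolerance, had 70, 87 and 64 fragments, a mean of 73.7 ± 11.9 (SD, n = 3). The lowest of the group was *AT5G52980*, described as an ER-based assembly factor of the V-ATPase, with 49, 47 and 54 fragments, a mean of 50 ± 3.61 (SD, n = 3). It did not overlap with *TNO1* in any replicate. Its peak was also listed for the neighbouring gene *AT5G52990* in all replicates, and that of *AT1G14010* for *AT1G14020*.

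To place these genes among other ERAD components, 13 loci of the pathway were looked up. In the lines used here 7 of the 13 occur, and *PAWH2*, *EBS5* and *Hrd1B* are the 3 that are also on the flower list. Of all 842 target genes, 57 are on that list. The 13 loci were chosen with earlier results of these data known, so counts over them are a description and no result about the pathway. The other 4 had means from 51.7 to 269 fragments, all below that of *PAWH2*. *DER1* (*AT4G29330*), a derlin of the ER membrane, had 230, 290 and 288 fragments, a mean of 269 ± 34.1 (SD, n = 3). *AT4G17420*, named *PAWH1*, had 193, 211 and 211 fragments, a mean of 205 ± 10.4 (SD, n = 3). *OS9* (*AT5G35080*), a lectin that recognizes misfolded glycoproteins, had 57.3 ± 4.93 fragments and *AT1G73570*, named *HRD3B*, had 51.7 ± 6.81 fragments (SD, n = 3). The peak of *AT1G73570* was also listed for *AT1G73550* and *AT1G73560*, so its pileup cannot be told apart between these genes. Thus *DER1* and *AT4G17420* lay above *EBS5* and *Hrd1B* in every replicate without being on the flower list, while *OS9* and *AT1G73570* lay below them. A fold enrichment of at least 3 in all replicates was found at 6 of the 7 loci and at 47.1% of all target genes. The other 6 loci, among them *Hrd1A*, *UBC32* and *CDC48*, were not analysed here.

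**Figure D3:**
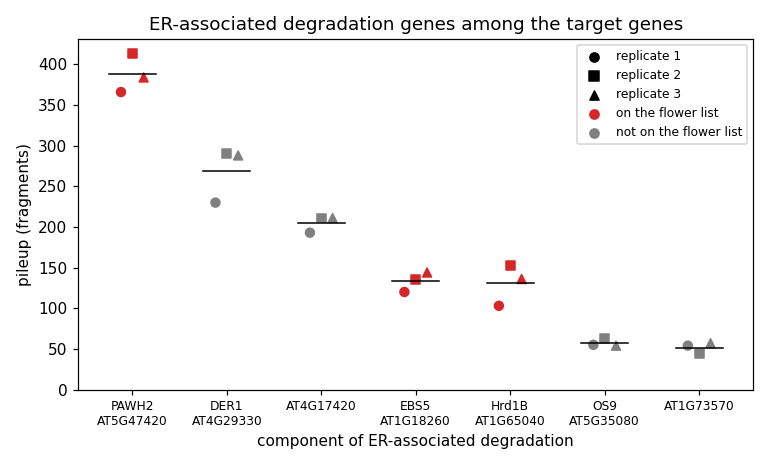
Pileup (vertical axis, fragments) in replicates 1 to 3 at the 7 ERAD components among the target genes used here, with a line at each mean. Genes on the flower list (red) lie at 388, 133 and 131 fragments and genes off it (grey) at 269, 205, 57.3 and 51.7 fragments, so the 2 sets are interleaved.

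The groups formed from the annotation differed in median pileup from 43.3 to 132 fragments. After the ER and secretory genes came gene expression (7 genes, median 90.0 fragments), proteolysis outside the ER (3 genes, 74.3), membrane transport (5 genes, 68.7), metabolism (7 genes, 59.0), signalling and stress (9 genes, 48.0), chloroplast (7 genes, 44.7) and genes with no assigned role (8 genes, 43.3). The ranges of all groups overlapped, and no group held only strong peaks. The differences between groups were not tested, and the groups were formed with earlier results of these data known.

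**Figure D4:**
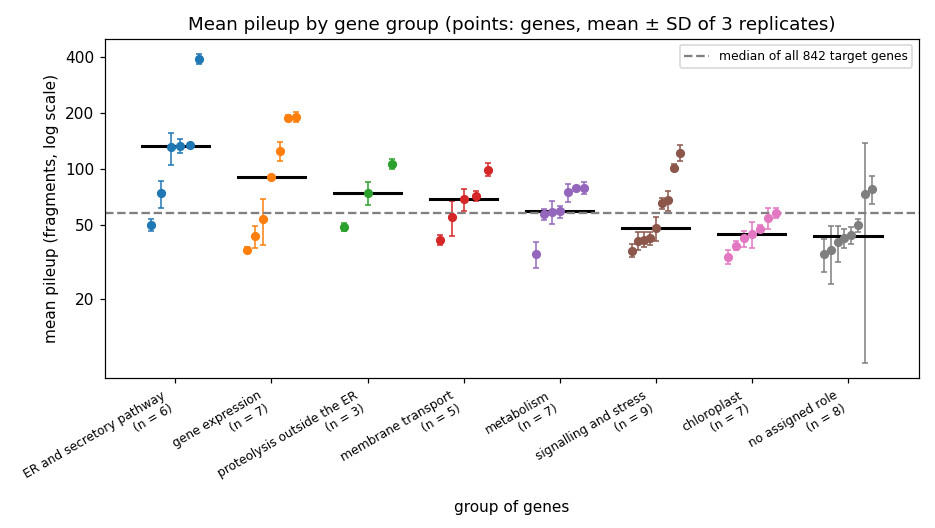
Mean pileup (vertical axis, fragments, log scale) of the 52 genes by group (horizontal axis), with points and bars for the mean and SD of 3 replicates a black line for the group median and a dashed line for the median of all 842 target genes, 58.2 fragments. The ER and secretory group has its median at 132 fragments, and all 7 chloroplast genes lie at or below 58.0 fragments.

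The gene expression group held both strong and weak peaks. *PRR7* (*AT5G02810*), a transcriptional repressor of the circadian clock that acts with *PRR9* in its response to temperature, had 181, 202 and 185 fragments, a mean of 189 ± 11.2 (SD, n = 3), at chr5:640172-643229 in replicate 1. Its peak was also listed for a neighbouring tRNA gene, *AT5G02815*, in all replicates. *AT1G20880*, an RNA-binding protein with RRM motifs, had 181, 184 and 194 fragments, a mean of 186 ± 6.81 (SD, n = 3), and shared its peak with *AT1G20890*. *PRR7* and *AT1G20880* did not differ beyond their spread. *SDG40*, a SET domain protein, followed with a mean of 124 fragments and *BBX27*, a B-box zinc finger protein, with 90.0 fragments. The lowest was *AGF2*, an AT-hook protein of gibberellin feedback, with 38, 36 and 36 fragments, a mean of 36.7 ± 1.15 (SD, n = 3). *AT1G23750*, a nucleic acid-binding protein, had 42, 49 and 71 fragments, and its mean of 54.0 ± 15.1 (SD, n = 3) rests on a high replicate 3. *CSP3*, a cold shock domain protein involved in freezing tolerance, was also low with a mean of 43.3 fragments, 2.18 ± 0.287 times the local background (SD, n = 3).

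Of the 9 genes of signalling and stress, 2 had a mean of at least 100 fragments and 5 were under 50 fragments, where 23.3% and 39.2% of all target genes lie. *AT5G64400*, a CHCH domain protein whose loss together with that of its relative raises tolerance to drought and light stress, had 116, 113 and 135 fragments, a mean of 121 ± 11.9 (SD, n = 3), at chr5:25748125-25750204 in replicate 1. *EDL3* (*AT3G63060*), an F-box protein that regulates abscisic acid signalling, had 99, 98 and 106 fragments, a mean of 101 ± 4.36 (SD, n = 3), at chr3:23300420-23302292 in replicate 1, with the peak also listed for *AT3G63052*. *AT5G64400* was above *EDL3* in every replicate. The tetraspanin *TET2* and the calcium-dependent protein kinase *CPK15* were in the middle with means of 67.7 and 65.3 fragments. The calmodulin-like protein *MSS3* (42.3 fragments), the protein kinase *AT3G24190* (41.7 fragments) and the cysteine-rich stress tolerance protein *AT4G33660* (41.0 fragments) were weaker, and the lowest was *AT3G52070*, with 38, 38 and 33 fragments. *AT1G10960* was placed in this group because the flower list describes it as a phosphatidylinositol 4-phosphate 5-kinase family member, while the reference table names the locus *FD1*, ferredoxin 1. It had 51, 53 and 40 fragments.

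All 5 membrane transport genes had overlapping peaks and a *q* value below 1e-05 in each replicate, as had 90.4% and 65.6% of all target genes, respectively. *ABCA1* (*AT2G41700*), an ATP-binding cassette protein, had 90, 105 and 102 fragments, a mean of 99.0 ± 7.94 (SD, n = 3), at chr2:17395841-17397332 in replicate 1. *G3Pp4*, a glycerol-3-phosphate permease of a family induced by phosphate starvation, had 68, 70 and 76 fragments, a mean of 71.3 ± 4.16 (SD, n = 3). *ABCA1* lay above *G3Pp4* in every replicate. The aquaporin *PIP1A* had 68.7 ± 9.29 fragments (SD, n = 3), and its replicates overlapped with those of *G3Pp4*. The plasma membrane proton pump *HA4*, whose mutant has exaggerated defects under salt stress, had 53, 68 and 45 fragments, which overlap with those of *PIP1A*. The lowest was the sucrose efflux transporter *SAG29* (*SWEET15*) with 39, 42 and 44 fragments, below *G3Pp4* in every replicate.

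In metabolism, *MIPS2* (*AT2G22240*), which makes inositol phosphate from glucose phosphate, had 72, 81 and 84 fragments, a mean of 79.0 ± 6.25 (SD, n = 3). *AT1G10280*, an *N*-acetylglucosaminyltransferase family protein, had 76, 79 and 80 fragments, a mean of 78.3 ± 2.08 (SD, n = 3). The order of this pair changed between replicates. The fold enrichment separated them more, with 3.42 ± 0.497 at *MIPS2* and 4.94 ± 0.269 at *AT1G10280* (SD, n = 3), and pileup divided by fold enrichment, the background that this implies, was 23.3 fragments at *MIPS2* and 15.9 fragments at *AT1G10280*. The peak of *MIPS2* was also listed for *AT2G22241* in all replicates. *GFAT*, an enzyme on the way to UDP-*N*-acetylglucosamine, the sugar donor for the glycans of ER proteins, had 66, 75 and 83 fragments. The mutase *PGM*, *RXW8*, described on the flower list as a GDSL-like lipase, and the peroxisome proliferation factor *PEX11D* had means from 57.0 to 59.0 fragments. The lowest was *IAGLU*, an auxin glucosyltransferase, with 32, 31 and 41 fragments.

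Outside the ER, the 3 genes of proteolysis were well separated from one another. *ALP* (*AT5G60360*), a senescence-associated thiol protease, had 99, 111 and 108 fragments, a mean of 106 ± 6.25 (SD, n = 3). *RAD23C* (*AT3G02540*), which delivers substrates to the proteasome, had 66, 71 and 86 fragments, a mean of 74.3 ± 10.4 (SD, n = 3), at a peak also listed for *LBD41*. The RING protein *AT1G74870* had 51, 46 and 49 fragments, a mean of 48.7 ± 2.52 (SD, n = 3). The 3 genes kept this order in every replicate and their ranges did not overlap.

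The 7 chloroplast genes had means from 33.7 to 58.0 fragments, 5 of them under 50 fragments (39.2% of all target genes), and *LHCB4.2* alone among them was at a fold enrichment of 3 or more in each replicate. *LHCB4.2* (*AT3G08940*) is a light-harvesting protein of photosystem II and had 61, 59 and 54 fragments, a mean of 58.0 ± 3.61 (SD, n = 3). The plastocyanin gene *DRT112* (*AT1G20340*, also *PETE2*), an electron carrier of photosynthesis, had 56, 47 and 61 fragments, a mean of 54.7 ± 7.09 (SD, n = 3). The values of *DRT112* and *LHCB4.2* overlap. The proteases *ftsh9* and *SPPA* and the sulfate transporter *SULTR3;1* followed with means of 47.7, 44.7 and 42.3 fragments. *RBCS3B*, a small subunit of Rubisco, had 38.7 ± 2.08 fragments (SD, n = 3). It belongs to a gene family, and whether the unique mapping of reads affected its value was not tested. Its pileup divided by fold enrichment was 16.6 fragments, against a median of 16.8 fragments over the 52 genes. *FSD1*, an iron superoxide dismutase, had 32, 37 and 32 fragments, the lowest mean of all 52 genes. The highest mean in this group was above that of 1 of the 6 ER and secretory genes, *AT5G52980*.

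Of the 8 genes with no assigned role, 5 were under 50 fragments, against 39.2% of all target genes. *AT5G37485*, a non-coding RNA gene, had the highest mean with 80, 64 and 90 fragments, 78.0 ± 13.1 (SD, n = 3), at chr5:14887657-14888728 in replicate 1. *AT2G28400*, which encodes a protein of the senescence regulator family with unknown function, had 146, 46 and 27 fragments, a mean of 73.0 ± 63.9 (SD, n = 3). In this gene a single replicate decides the value. The strongest peak of replicate 1, chr2:12150317-12153682, has its summit more than 2 kb from those of replicates 2 and 3, and another listed peak of replicate 1 with 27 fragments lies where the peak of replicate 3 lies. The RNI-like domain proteins *AT4G03220* and *AT3G62430* had means of 50 and 40.3 fragments, the transmembrane protein *AT5G01881* 44.0 fragments and *AT3G59490*, a hypothetical protein, 42.7 fragments. The lowest of the group was *AT1G75730*, also a hypothetical protein, with 32, 30 and 43 fragments.

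The position of the summits agreed better where pileup was high. The strongest peaks of the 3 replicates overlapped one another by at least 1 bp at 47 of the 52 genes (90.4%), against a background of 90.4% of all target genes. With an overlap of 50% of each peak the count was 28 genes (53.8%), against 58.4% of all target genes. The outermost summits lay 31.5 bp apart (median) at the 10 genes with at least 100 fragments, 75.5 bp at the 22 genes with 50 to 100 fragments, and 126 bp at the 20 genes under 50 fragments. The corresponding median widths were 2347, 1045 and 620 bp. Over all target genes these medians were 43, 70.5 and 207 bp for the summits and 2581, 1108 and 594 bp for the widths, and the same gradient was present there. Across the 52 genes Spearman's rho between mean pileup and summit distance was -0.65, as a description of points that in part share peaks.

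**Figure D5:**
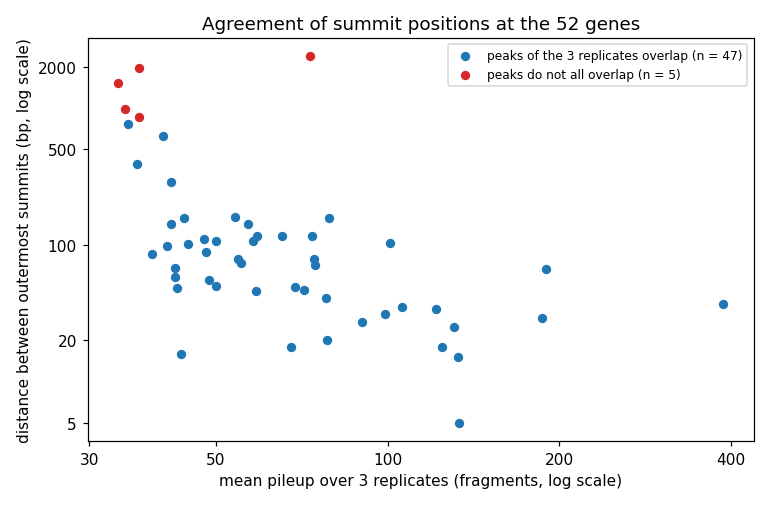
Distance between the outermost summits of the 3 replicates (vertical axis, bp, log scale) against mean pileup (horizontal axis, fragments, log scale) for the 52 genes. All 10 genes with at least 100 fragments lie at or below 103 bp, and 4 of the 5 genes whose peaks do not all overlap (red) have means under 50 fragments.

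The 5 genes whose strongest peaks did not all overlap were *AT2G28400*, the pseudogene *AT2G46730*, *AGF2*, *IAGLU* and *FSD1*, with outermost summits 856 to 2396 bp apart. At *FSD1* the peaks of replicates 1 and 3, with summits at 12888328 and 12888425 on chromosome 4, overlapped, and the summit of replicate 2 lay at 12886896. At *AT2G46730* the peak of replicate 1 stood apart with 51 fragments, against 32 and 27 fragments for replicates 2 and 3, which overlapped. At *AGF2* and *AT2G28400* other listed peaks did overlap in all replicates, while at *AT2G46730*, *IAGLU* and *FSD1* no combination of listed peaks did. For these 3 genes the rule of a peak in each replicate was met by peaks at different places.

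A peak can lie upstream of more than 1 gene, and pileup then cannot be told apart between them. The strongest peak was also listed for another target gene in all replicates at 13 of the 52 genes (25%), against 32.9% of all target genes, and in at least 1 replicate at 16 genes, against 295 of the 842 target genes. The 17 partner genes included *LBD41*, *XTH9*, which shares the peak of *AT4G03220*, and *BZIP53*, which shares that of *AT3G62430* in 1 replicate. In the gene order of the reference table, 12 partners are the direct neighbour. None of the 17 partners is on the flower list. As only 57 of the 842 target genes are on that list, this count is near its background and is no result about the partners.

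A single peak in each replicate was listed for 34 of the 52 genes (65.4%), against 65.7% of all target genes. The other 18 genes had several peaks in a replicate, in 13 of them in 1 replicate and in 5 of them in 2 replicates. The 23 weaker peaks had 27 to 56 fragments, with a median of 35 fragments, the median of all peaks. The highest was at *CPK15*, where replicate 3 had peaks of 68 and 56 fragments with summits 1280 bp apart and replicate 1 had peaks of 60 and 50 fragments with summits 1409 bp apart. In replicate 2 a single wide peak, chr4:11638566-11640752, covered both places. At *EBS5*, the weaker peaks of replicates 1 and 3 had 35 and 32 fragments, far below the strongest, 120 and 144 fragments.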

How the data were processed

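Seedlings of 1 condition were analysed with 3 anti-MYC ChIP samples and 1 input. The authors trimmed reads with Skewer (reads under 50 bp dropped), mapped them with Bowtie to unique positions of TAIR10, removed duplicates and called peaks with MACS per sample against the input at *P* below 0.001. The deposited pileup is a signal in fragments without normalization for depth, the deposited fold enrichment is a ratio to the local background, and the deposited −log10 values are those of the *p* and *q* values. Unique mapping lowers pileup at repeated sequences.

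Genes were joined to peaks by the peak names in 1389 lines of the target table, and 1240 lines were not used here. The peak with the highest pileup per replicate stood for a gene. The study's methods take peaks within 2 kb upstream. Members, gene groups, the ERAD list and settings were chosen with earlier results of these data known. All 52 loci were found in the RefSeq table of TAIR10.1, used for names and gene order only, since the files use TAIR10. Genes were described by the mean and SD of 3 replicates, and no test was run, since there is 1 condition and genes are not replicates. Values in every replicate are given for all ER and secretory genes and, in other groups, for at least the 2 highest and the lowest. The count of promoter motifs was not run, as no sequence was used here. Overlap and peak choice were tested on simulated peaks. Tables were handled with pandas 2.3.3 under Python 3.11.15, plots drawn with matplotlib 3.10.9, and statistics computed with SciPy 1.17.1 and NumPy 2.4.6. The versions of the authors' tools are not given in the sources used here, and the submitters' notes also name edgeR.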

Additional observations from a re-analysis of the deposited data

How the results depend on the processing

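No paired analysis was possible because all ChIP samples belong to 1 group. Of 38 alternative values, 10 changed by more than 1.5 times (counts) or by over 1 SD (other values), and 28 changed less. The planned motif count was not run.

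Among the 36 genes with a peak of their own in each replicate, 31 had overlapping peaks (47 of the 52), 15 a fold enrichment of at least 3 (23 of the 52) and 21 a *q* value below 1e-05 (34 of the 52). These counts are out of 36 and 52 genes, so the counts alone do not compare the 2 sets. The median pileup of the 36 genes was 54.3 fragments (57.5 for the 52) and the ratio of ER and secretory to other genes 2.68 (2.40 for the 52). Overlap at 50% reciprocally was met by 28 genes. The median was 74.0 fragments when peaks had to reach a *q* value below 1e-05, which leaves stronger peaks only. A fold enrichment of at least 5 was met by 8 genes and of at least 2 by 50 genes. With mean log2 pileup in place of the median, the ratio was 2.06, and the cause was not tested.

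With each replicate left out, 48 to 51 genes had overlapping peaks, 24 to 25 a fold enrichment of at least 3 and 35 to 38 a *q* value below 1e-05, the median ran from 57.0 to 58.5 fragments and the ratio from 2.25 to 2.49. Without *PAWH2* the ratio was 2.38, and with overlapping peaks only it was 2.31 and the median 58.7 fragments, alternatives chosen after seeing the data. Without replicate 1, *AT2G28400* had 46 and 27 fragments. The unknown depth limits comparison between replicates.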
